A study of Danio rerio with 8 samples.

Results

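Ribosome footprints of zebrafish embryos lacking a normal ddx3xb gene were compared with those of the same mutant after injection of the full-length gene. DDX3 proteins are DEAD-box RNA helicases: they use ATP to remodel RNA and help the small ribosomal subunit load onto and scan messenger RNAs, above all those with structured leaders. ddx3xb is a zebrafish DDX3 gene, and ddx3xa is its paralogue. At this blastula age the embryo still translates maternal messenger RNAs and has begun to transcribe its own genome, while the enveloping layer, an outer epithelium, and the yolk syncytial layer form around the inner cells. Ribosome profiling sequences the RNA fragments that ribosomes shield from nuclease, so a gene's value reflects both how much messenger RNA there is and how heavily it is translated.

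The comparison used 4 of 8 samples. The uninjected mutant embryos (KO, 2 samples) and the mutant embryos that received the construct labelled ddx3xbFL (KO_FL, 2 samples) shared the genotype Ddx3xb-/Ddx3xb- and an age of 4 hpf (hours post fertilization). The other groups, wild type embryos (WT) and mutant embryos given a construct labelled ddx3xb deltaN (KO_dN), again 2 samples each at 4 hpf, are given only as values beside them. No group of mutant embryos had been injected with a control substance, so between KO and KO_FL alone the construct and the injection itself cannot be told apart; KO_dN embryos had been injected too. The dose, the form of the injected material, the kind of mutation and whether mothers were mutant too are not stated in the labels. Nor is it stated whether replicates came from separate clutches or whether injected and uninjected embryos were handled together. The sample titles of KO_FL and KO_dN have another form than those of KO and WT. Whether the injected groups were a separate batch is not stated, and between KO and KO_FL such a batch could not be told apart from the injection.

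For every gene the authors deposited 1 FPKM value a group (fragments normalised to transcript length and library size), their mean of both replicates. No replicate values were at hand, so no value below has an error, no difference was tested, and each comparison describes 1 value against another. The number of reads behind a value is unknown. Values were divided by a scaling factor per group, 0.730 for KO and 0.902 for KO_FL, obtained as a median of ratios from 3177 genes that reached 1 FPKM in each of the 4 groups (3.40 for WT, 0.447 for KO_dN). All levels below are such scaled FPKM unless called deposited. The place of WT beside the mutant groups depends on these factors, and the alternatives below were run on KO_FL against KO only. A log2 ratio is log2((KO_FL + 1)/(KO + 1)), which understates the difference of low genes. It was computed for the 5964 of 33633 gene identifiers whose mean of KO and KO_FL was at least 1. A gene low in KO could enter only if it was high in KO_FL, and the reverse. Gene symbols are written as the name table gives them, many in capitals.

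The injected gene itself stood higher in KO_FL. ddx3xb (ENSDARG00000005774) had 20.1 FPKM in KO and 85.0 in KO_FL, a 4.23-fold difference and a log2 ratio of 2.03; the deposited values were 14.7 and 76.7. It had 283 in KO_dN and 37.9 in WT. Footprints on the mutant's own transcript and on the injected one cannot be told apart in a value per gene, and the level in KO shows that footprints map to the gene in uninjected mutants too. The paralogue ddx3xa (ENSDARG00000020573) had 15.2 FPKM in KO and 12.7 in KO_FL, a log2 ratio of -0.24, beside 7.13 in KO_dN and 8.27 in WT. As deposited, ddx3xa stood at 11.1 and 11.4, so the side on which it lay depended on the scaling.

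Most genes lay close together in both groups. Of the 5964 genes, 356 were higher in KO_FL by 2-fold or more (5.97%) and 254 lower (4.26%), 10.2% in either direction, while 49.6% had a log2 ratio above 0. The median was -0.0026, with a 5th percentile of -0.92 and a 95th of 1.12. The balance of higher and lower genes moved with the scale: 58.4% of the genes past 2-fold were higher here, against 76.3% with deposited values and 41.8% when groups were set to equal sums without their 50 highest genes. Those scales moved the median gene to 0.22 and -0.21, and TPM moved it to 0.13, so differences are best read relative to the median gene. Among the 4499 genes with a symbol other than a small RNA name, 130 reached a 2-fold higher level in KO_FL (2.89%), 132 a 2-fold lower one (2.93%) and 5.82% either. For these the median log2 ratio was -0.02, 47.6% lay above 0 and 94.2% lay within 2-fold.

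**Figure D1:**
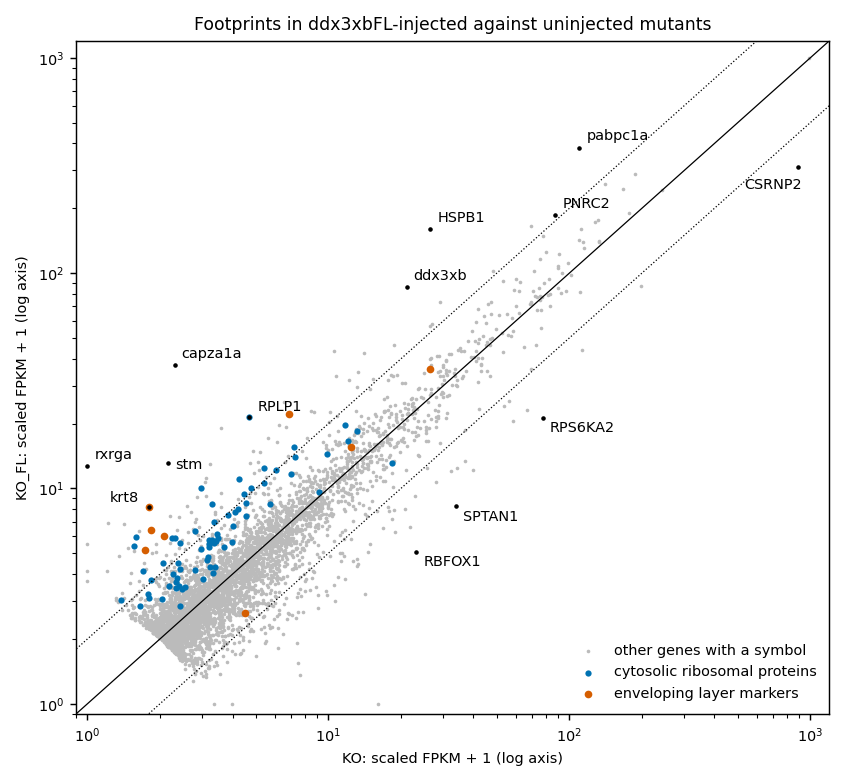
Scaled FPKM + 1 in KO (x axis) and KO_FL (y axis), both on log axes, 1 point per gene with a symbol other than a small RNA name, with cytosolic ribosomal protein genes in blue, enveloping layer markers in orange and single genes named; the solid line marks equal levels and the dotted lines 2-fold. Most points lie between the dotted lines, ddx3xb lies above them at 20.1 against 85.0, and the blue points lie almost all above the solid line.

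Genes with symbols of small RNAs held most of the highest ratios and fewer of the lowest. Of the 15 highest ratios among genes with a symbol and a mean of at least 5 FPKM, 13 belonged to names of small RNAs, and 12 of the 15 were listed at 0 in KO. Of the 15 lowest, 4 were small RNA names and 3 of the 15 were listed at 0 in KO_FL. Of the 1254 genes ranked, 1162 had other symbols, so small RNA names were more frequent at both ends than among all genes ranked. Genes listed at 0 in KO or in KO_FL passed only through the other group, so their side is no finding. The next paragraphs therefore take the 15 highest and 15 lowest genes without such names, a set added after these values were seen.

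Among those genes, the highest ratio belonged to an actin regulator. capza1a, a subunit of the protein that caps actin filament ends, had 1.30 FPKM in KO and 36.3 in KO_FL (log2 ratio 4.02), and 1.02 in KO_dN and 2.62 in WT. KO_FL thus stood above every other group for capza1a, WT included. rxrga, a retinoid X receptor, was listed at 0 in KO and KO_dN and at 11.7 in KO_FL, with 0.061 in WT. MXI1, which pairs with MAX and opposes MYC, had 9.54 in KO, 42.4 in KO_FL, 9.40 in KO_dN and 1.91 in WT (2.04). pmaip1 (Noxa), a BH3-only protein that promotes cell death, had 5.54, 24.3 and 6.83 in KO, KO_FL and KO_dN and was listed at 0 in WT (1.95). For rxrga, MXI1 and pmaip1 too, the KO_FL value was the highest of the 4 groups. All were chosen as high in KO_FL against KO, a choice that favours a high KO_FL value.

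Of the 15 highest genes, 8 had their largest scaled value in KO_FL, 6 in WT and 1, ddx3xb, in KO_dN. KO_FL above KO is no finding in these genes, and the rank of KO_FL over the other groups is partly a product of the choice. The genes next described were among those with the largest value in WT. HSPB1, a small heat shock protein that keeps unfolding proteins soluble, had 25.5 FPKM in KO, 160 in KO_FL, 27.6 in KO_dN and 714 in WT (log2 ratio 2.60). stm, which encodes the otolith protein starmaker, had 1.15, 12.1, 2.34 and 43.5 in the same order (2.60). pabpc1a, a cytoplasmic poly(A)-binding protein that bridges the tail of a messenger RNA to initiation factors, had 109, 382, 135 and 551 (1.80). These genes were higher in KO_FL than in either other mutant group and lower there than in WT. RPLP1, an acidic protein of the ribosomal stalk, stood at 3.67, 20.6, 7.59 and 92.9 (2.21), and RPL35 at 1.96, 9.02, 2.65 and 33.5 (1.76). OSBP, an oxysterol-binding lipid transfer protein, differed from the rest in being as high in KO_dN: 2.12 in KO, 10.1 in KO_FL, 12.3 in KO_dN and 16.1 in WT (1.84). The remaining genes were, like capza1a, highest in KO_FL on the scaled values, though as deposited crp2 had 16.3 in KO_FL and 22.5 in WT. crp2, an acute-phase pentraxin gene, had 2.57, 18.1, 2.06 and 6.61 (2.42), WDFY1 had 2.07, 9.73, 4.10 and 2.29 (1.80), and si:ch211-229n1.7 had 2.24, 11.997, 1.81 and 2.795 (2.01); krt18a.1, a keratin, is described with the enveloping layer.

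Of the 15 lowest genes, all but si:dkey-117n7.3 had a common profile across groups on the scaled values. Without si:dkey-117n7.3, which had 15.1 FPKM in KO and was listed at 0 in the other 3 groups, the remaining 14 ranged from 8.80 to 76.4 in KO (median 12.8) and from 2.01 to 20.3 in KO_FL (median 3.41). Their KO_dN values, 9.17 to 92.2 with a median of 15.1, were close to those of KO, and their WT values were low, 0.119 to 2.68 with a median of 0.639. KO_FL thus lay between WT and the other mutant groups in the medians of these genes on the scaled values. As deposited, the side of WT beside KO_FL varied. Deposited KO_FL and WT values were 3.67 and 7.72 for RBFOX1 and 6.55 and 9.12 for SPTAN1. They were 18.3 and 6.99 for RPS6KA2 and 4.74 and 0.476 for WAS. The 15 genes were chosen as low in KO_FL against KO, so that side is no finding. WT and KO_dN were not used in the choice.

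RPS6KA2, a ribosomal S6 kinase of the RSK family, was the highest of the 14: 76.4 FPKM in KO, 20.3 in KO_FL, 92.2 in KO_dN and 2.06 in WT (log2 ratio -1.86). RBFOX1, a splicing regulator known from brain and muscle, had 22.2, 4.07, 24.7 and 2.27 (-2.19). SPTAN1, the alpha chain of non-erythroid spectrin, had 32.7, 7.27, 36.9 and 2.68 (-2.03). These 3 genes were about as high in KO_dN as in KO. WAS, an activator of actin branching best known from blood cells, had 17.8, 5.26, 22.7 and 0.140 (-1.59), and KLHL17, a kelch protein of actin-rich structures, had 20.7, 5.59, 19.1 and 0.445 (-1.72). CACNA2D4, an accessory calcium channel subunit, had 10.8, 2.81, 11.7 and 0.269 (-1.63). CYB5D2, a heme-binding protein, had 13.2 in KO and 2.23 in KO_FL (-2.14); ANAPC4, of the anaphase-promoting complex, 12.3 and 3.44 (-1.59); NUP37, of the nuclear pore, 9.60 and 2.56 (-1.58); and PLD1, a phospholipase D, 8.80 and 2.33 (-1.56). TMED8, of the p24 secretory cargo family, had 9.61 and 2.01 (-1.82), and si:dkey-181d19.6, si:ch211-236l14.4 and si:dkeyp-51h1.3 had ratios of -1.71, -1.63 and -1.59. By biological role the 15 were mixed, from kinases and channels to cytoskeletal proteins.

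**Figure D2:**
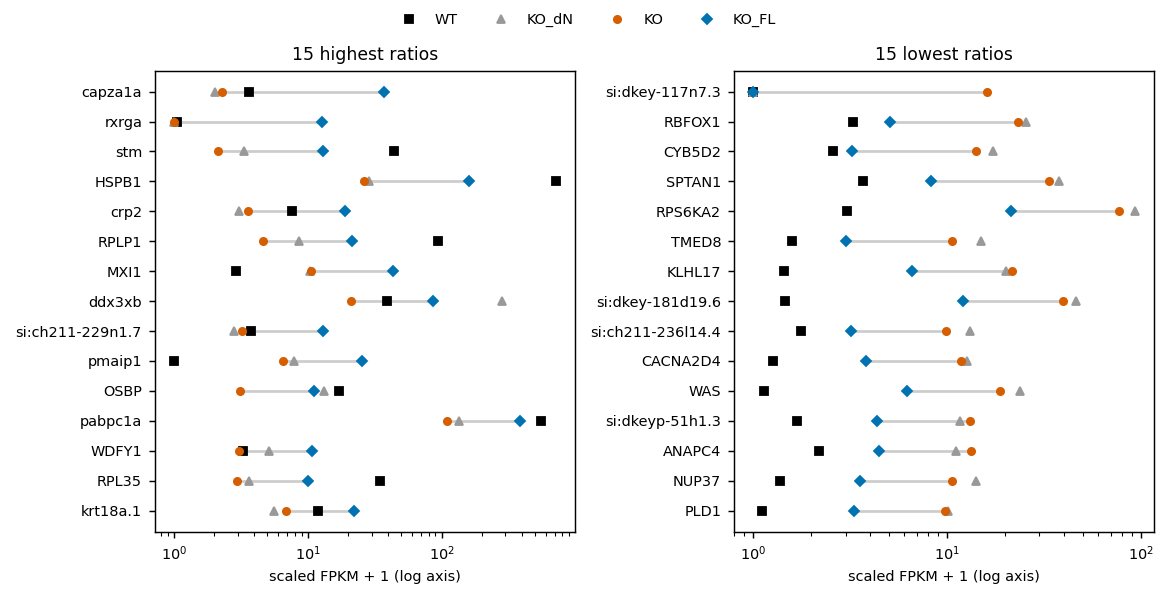
Scaled FPKM + 1 (x axis, log) in the 4 groups for the 15 highest and 15 lowest log2 ratios of KO_FL over KO among genes without small RNA names, 1 marker per group (square WT, triangle KO_dN, circle KO, diamond KO_FL) and a grey bar from KO to KO_FL. On the right the KO and KO_dN markers sit together, at medians of 12.8 and 15.1, with KO_FL at 3.41 and WT leftmost at 0.639 (without si:dkey-117n7.3); on the left the place of WT varies.

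Genes of the cytosolic ribosome were nearly all on the higher side in KO_FL. The ribosome's large and small subunits are built from protein sets that are needed in equal numbers, and vertebrate ribosomal protein messenger RNAs share a pyrimidine-rich start that couples their translation to growth signals. Of 73 such genes measured, 69 passed the filter, 8 of them with less than 1 FPKM in KO. At least 2-fold higher were 20 of the 69 and 0 were at least 2-fold lower, against 2.89% and 2.93% among all genes with such symbols; 68 had a log2 ratio above 0. The list's median was 0.79 where that of all genes was -0.0026. Summed over all 73 measured genes, the level was 215.5 FPKM in KO, 428.6 in KO_FL, 293 in KO_dN and 943 in WT. The count past 2-fold rested on the pseudocount: it was 38 with a pseudocount of 0.1 and 2 with a pseudocount of 5, 9 with equal sums without the 50 highest genes, and 42 with TPM, while the median stayed between 0.41 and 1.08 under all 10 alternatives.

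The large subunit genes had a median of 0.91, with 15 of 39 at least 2-fold higher and 39 of 39 above 0. The small subunit genes had a median of 0.60, with 5 of 30 and 29 of 30. RPL23A, near the tunnel exit, had 0.584 FPKM in KO, 4.93 in KO_FL, 3.07 in KO_dN and 9.49 in WT (log2 ratio 1.91). RPS16, of the small subunit, had 0.566, 4.42, 1.85 and 6.70 (1.79). Both lay below 1 FPKM in KO and passed the filter through KO_FL. RPL37 had 3.25, 10.03, 1.32 and 9.54 (1.38), its KO_dN value the lowest of the 4, and RPL13A had 2.296, 7.51, 6.09 and 20.4 (1.37). Of the stronger genes, RPS14 had 12.1, 17.4, 10.0 and 67.2 (0.49), whereas RPL12 hardly differed at 8.13 and 8.64 in KO and KO_FL (0.08). RPS6, the S6 kinase substrate, was the exception to the list's side: 17.3 in KO, 12.2 in KO_FL, 35.2 in KO_dN and 3.72 in WT (-0.48). Of the measured members, 4 did not pass. Reads that also match pseudogenes or near copies can move between such genes, and the labels do not say how the authors assigned them.

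**Figure D3:**
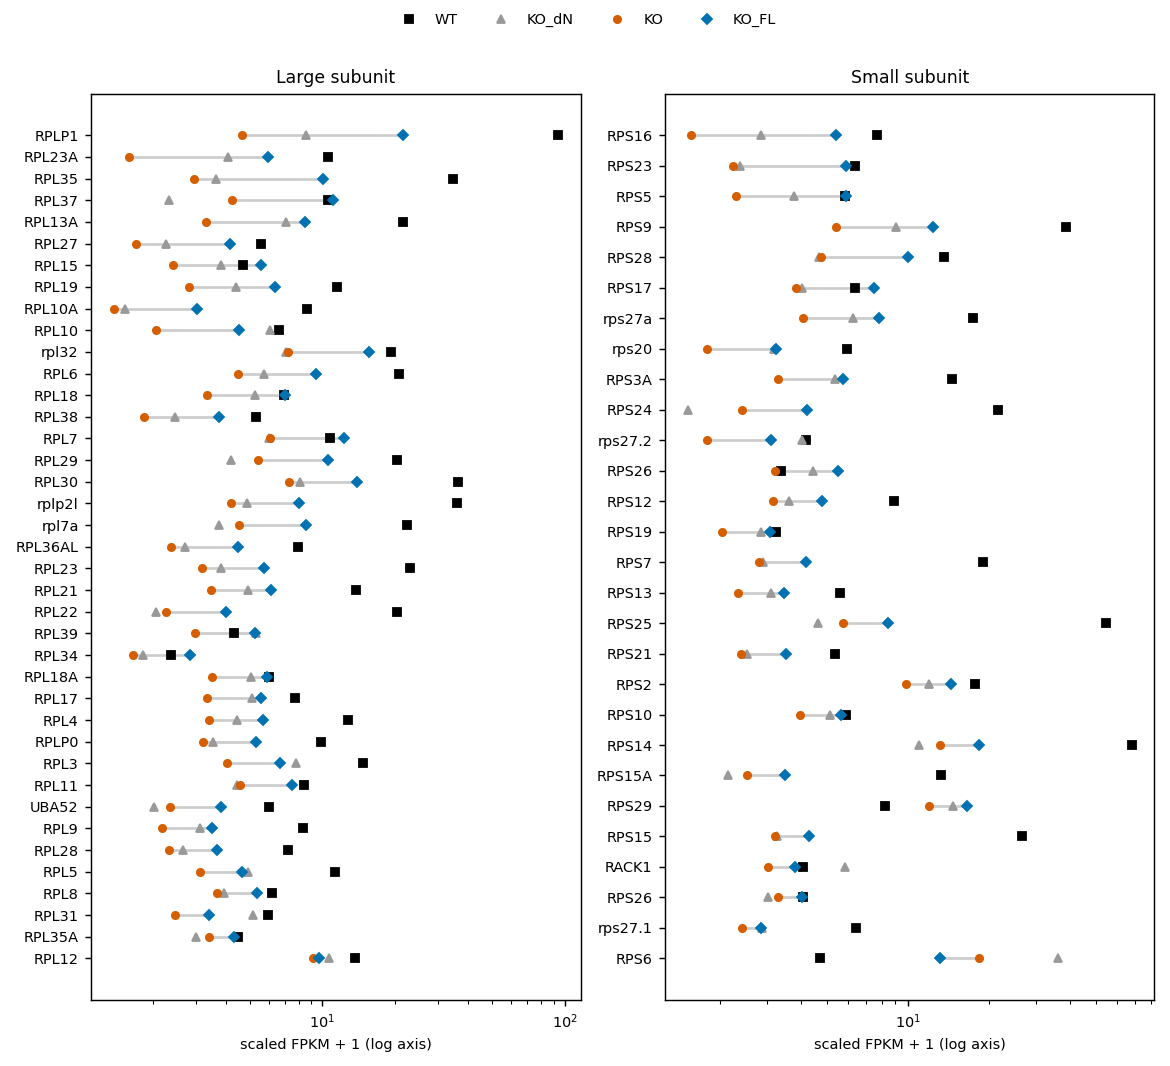
Scaled FPKM + 1 (x axis, log) in the 4 groups for ribosomal protein genes that passed the filter, by subunit and ordered by the log2 ratio of KO_FL over KO, 1 marker per group (square WT, triangle KO_dN, circle KO, diamond KO_FL) and a grey bar from KO to KO_FL. The diamond lies to the right of the circle for each gene shown except RPS6, where it lies to the left; RPLP1 leads the large subunit and RPS16 the small one.

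The rest of the translation apparatus gave no such one-sided picture. Among all genes with a symbol other than a small RNA name, 2.89% were at least 2-fold higher and 2.93% lower. Of 45 initiation factor genes that passed (58 measured), 1 was at least 2-fold higher and 1 lower, with a median log2 ratio of 0.06. Their summed level was 501 FPKM in KO and 791 in KO_FL, and pabpc1a alone, with 109 and 382, made most of that gap. The helicase eIF4A, which unwinds leaders at the cap, was level in its strongest gene: eif4a1a had 72.2 in KO and 66.5 in KO_FL (-0.12). EIF1, which guards start codon choice, had 9.97 and 17.5 (0.75). EIF2B3, a subunit of the eIF2 exchange factor, was the lowest, at 6.99 in KO, 2.71 in KO_FL, 9.69 in KO_dN and 0.638 in WT (-1.10). eif4e1c, a cap-binding protein, had 28.1, 15.2, 4.13 and 9.54 (-0.85), its KO_dN value being lower still.

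Elongation and termination genes had 7 of 16 pass, with 1 at least 2-fold higher, 0 lower and a median of 0.28. With equal sums without the 50 highest genes the median was -0.01, where that of all genes was -0.21. Under the alternatives the list's median stayed above that of all genes, by 0.17 to 0.88. Of all genes with such symbols, 2.89% were at least 2-fold higher and 2.93% lower. eef1a1l1, which brings aminoacyl-tRNA to the ribosome, had 47.3 FPKM in KO, 101 in KO_FL, 64.0 in KO_dN and 43.3 in WT (1.09). Its exchange factor EEF1B2 had 6.73, 13.96, 7.17 and 9.63 (0.95). ETF1, the release factor, had 28.0 and 34.2 in KO and KO_FL (0.28), and eef2a.1, a translocase gene, was on the other side at 6.57 and 3.35 (-0.80). EEF1G, of the same complex as EEF1B2, had 4.00 and 4.64 (0.17), and ABCE1, a ribosome recycling factor, had 0.991 and 1.75 (0.47). Aminoacyl-tRNA synthetases (14 of 18 passed) had 0 genes past 2-fold and a median of 0.02. Ribosome biogenesis and RNA polymerase I genes (47 of 57) had 0 higher and 1 lower, the 60S assembly factor NIP7 at 10.2 and 4.02 (-1.16), and a median of 0.02, with nucleolin (ncl) at 80.8 and 77.8 and npm1a at 54.0 and 63.4.

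Several keratin and yolk layer genes that were low in KO were higher in KO_FL. In bulk embryos, fewer cells of a type and less RNA per cell cannot be told apart. The 26 enveloping layer markers measured summed to 52.1 FPKM in KO, 97.2 in KO_FL, 46.3 in KO_dN and 96.5 in WT. Without the filter, 5 of 25 were at least 2-fold higher in KO_FL and 0 lower, with a median log2 ratio of 0.18. Among all 22412 genes without the filter, 390 were higher and 277 lower. The 8 that passed included the same number past 2-fold, but krt8, krt4 and krt5 were below 1 FPKM in KO and so could pass only by being high in KO_FL, and the median of 1.56 over the 8 is therefore a description of that selection. krt18a.1, a simple-epithelium keratin, had 5.89 FPKM in KO, 21.1 in KO_FL, 4.56 in KO_dN and 11.0 in WT (1.68). Its partner keratin krt8 had 0.806, 7.19, 1.06 and 5.63 (2.18), krt4 had 0.828, 5.44, 1.05 and 4.67 (1.82), and krt5 had 0.726, 4.18, 0.576 and 1.71 (1.59). cldne, a tight junction claudin, had 1.08, 4.99, 1.53 and 3.44 (1.53). For these 5 genes KO_FL was the highest of the 4 groups on the scaled values, and KO and KO_dN were both low. The place beside WT depended on the scaling. As deposited, KO_FL and WT had 6.49 and 19.1 for krt8, 4.91 and 15.9 for krt4, and 19.0 and 37.5 for krt18a.1. The remaining 3 did not follow: grhl3, a transcription factor of the layer, had 11.4, 14.6, 12.9 and 43.7 (0.33), epcam, an adhesion molecule, had 25.4, 35.0, 17.7 and 21.7 (0.45), and krt92 lay on the other side at 3.53, 1.63, 4.68 and 0.905 (-0.78). The 18 markers without a ratio reached at most 1.104 in KO and 0.604 in KO_FL. The count was 2 with a pseudocount of 5 and 1 of 3 genes with a mean of at least 5 FPKM.

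The 18 yolk syncytial layer markers measured summed to 117 FPKM in KO, 168 in KO_FL, 98.7 in KO_dN and 131 in WT. Without the filter 4 of 16 were at least 2-fold higher in KO_FL and 0 lower, with a median of 0.11, where all genes had 390 higher and 277 lower of 22412. Of the 5 that passed (median 1.06), 3 were past 2-fold, and mxtx1 and mxtx2 among them passed through KO_FL. mxtx1, a homeobox gene of this layer, had 0.200 FPKM in KO, 3.13 in KO_FL, 0.263 in KO_dN and 5.22 in WT (1.78). mxtx2, which specifies the layer in zebrafish, had 0.707, 2.55, 1.08 and 2.53 (1.06). apoeb, an apolipoprotein E gene, had 4.61, 16.2, 5.94 and 9.14 (1.62). All 3 were low in both KO and KO_dN and higher in KO_FL and WT. ctsla, a cathepsin L gene and by far the strongest of the list, had 109, 142, 89.6 and 110 (0.38), and apoa4b.1 had 1.87 in KO and 1.29 in KO_FL (-0.33). The count was 1 with a pseudocount of 5. Vitellogenins (8 measured) and markers of later blood, muscle and neural tissue (22 measured) had 0 genes that passed, the later markers with at most 0.299 in KO and 0.191 in KO_FL.

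Some genes that the zygotic genome transcribes early were higher in KO_FL. The 39 early zygotic transcription factors measured summed to 48.1 FPKM in KO, 76.0 in KO_FL, 58.8 in KO_dN and 99.9 in WT. Only 13 passed, 1 with less than 1 FPKM in KO; 2 were at least 2-fold higher, 0 lower and 9 above 0, where all genes with such symbols had 2.89%, 2.93% and 47.6%. The median was 0.55 over the 13 and 0.21 without the filter. tbx16, a T-box factor of mesoderm, had 1.40 FPKM in KO, 6.36 in KO_FL, 1.97 in KO_dN and 9.85 in WT (1.62). noto, the notochord homeobox factor, had 2.28, 7.58, 2.32 and 5.80 (1.39). blf, a zinc finger factor, had 4.33, 8.50, 3.50 and 24.1 (0.83), and sox19a had 9.65, 15.6, 14.2 and 5.97 (0.64). GATA3, of ectoderm and the outer layer, had 1.11, 2.99, 2.77 and 2.75 (0.91), so that sox19a and GATA3, unlike tbx16 and noto, were nearly as high in KO_dN as in KO_FL. Factors at or below the median gene included irx7 at 5.18 and 4.79 in KO and KO_FL (-0.09), her5 at 4.28 and 3.74 (-0.15) and OTX1 at 2.97 and 1.74 (-0.53). The count was 0 with a pseudocount of 5, 4 with deposited values and 7 of 20 with TPM.

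Signalling genes of axis and germ layer formation had 12 of 31 members pass. Of these, 4 had less than 1 FPKM in KO and so could pass only by being high in KO_FL. At least 2-fold higher were 3, 0 were lower and 12 were above 0, where all genes with such symbols had 2.89%, 2.93% and 47.6%. The median was 0.46 over the 12 and 0.18 without the filter. All 31 measured summed to 27.3 FPKM in KO, 51.0 in KO_FL, 33.98 in KO_dN and 52.4 in WT. WNT8A, the ventrolateral Wnt ligand, had 0.473 FPKM in KO, 4.30 in KO_FL, 0.896 in KO_dN and 3.18 in WT (1.85). chrd, the dorsal BMP antagonist chordin, had 1.36, 5.42, 2.19 and 5.44 (1.45). CYP26A1, which degrades retinoic acid, had 4.08, 9.197, 3.97 and 12.95 (1.005). For these 3 genes KO_dN was close to KO, and KO_FL was nearer to WT, on the scaled values. As deposited, KO_FL was nearer to KO in FPKM. Deposited KO, KO_FL and WT values were 0.346, 3.87 and 10.8 for WNT8A and 0.991, 4.88 and 18.5 for chrd. For CYP26A1 they were 2.98, 8.29 and 44.0. Members near the median gene were the FGF feedback phosphatases DUSP4 at 1.19 and 1.19 and DUSP6 at 1.75 and 1.83, and the Notch ligand gene DLD at 2.97 and 3.09. The count was 6 with a pseudocount of 0.1, 0 with a pseudocount of 5 and 8 of 17 with TPM. A list of Wnt pathway genes, which also holds WNT8A, was nearer to the median. Of 14 that passed, WNT8A was the one past 2-fold, and the list's median was 0.11. CTNNB1 had 15.01 and 17.3, and the transcription factor gene LEF1 had 4.63 and 2.82 (-0.56).

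**Figure D4:**
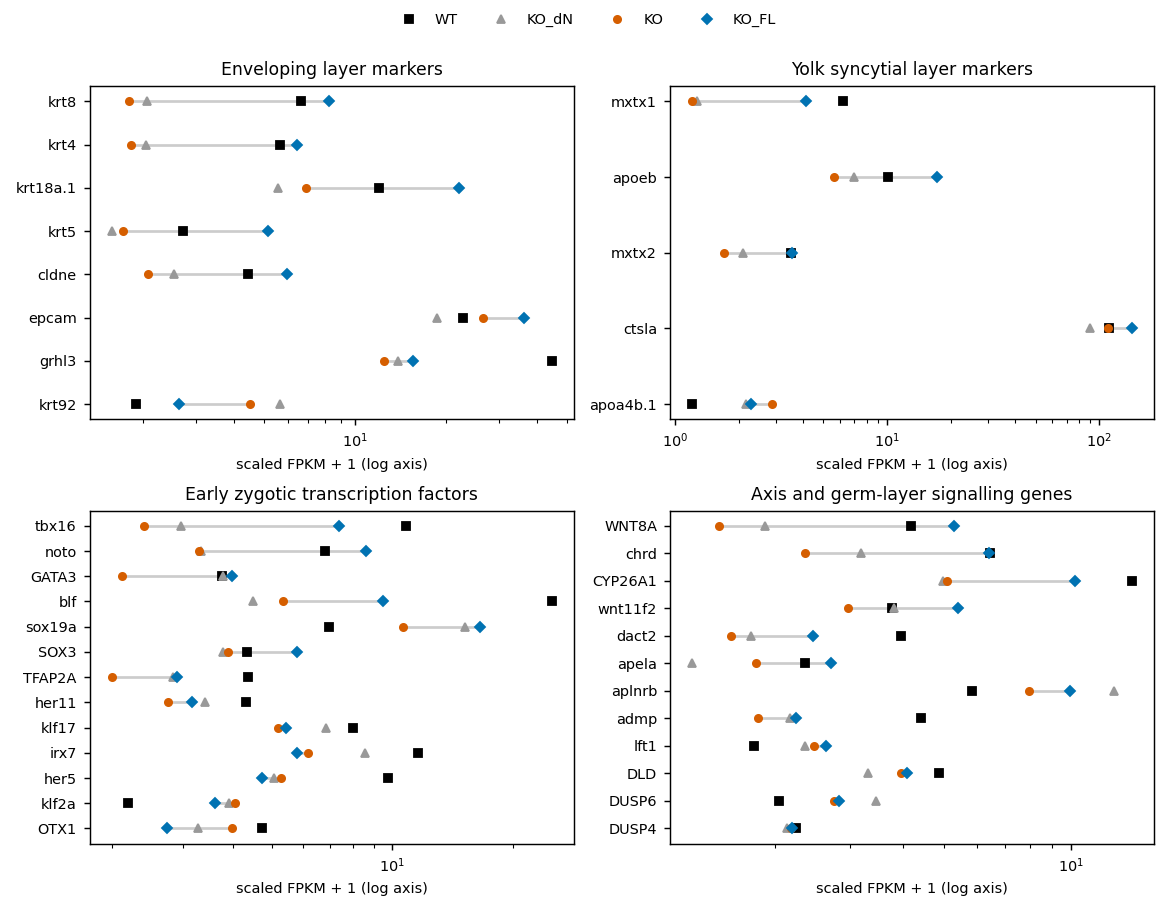
Scaled FPKM + 1 (x axis, log) in the 4 groups for the members of 4 lists that passed the filter, ordered by the log2 ratio of KO_FL over KO, 1 marker per group (square WT, triangle KO_dN, circle KO, diamond KO_FL) and a grey bar from KO to KO_FL. For krt8, mxtx1, tbx16 and WNT8A the KO and KO_dN markers lie to the left and the KO_FL and WT markers to the right, whereas for DUSP4 and DLD the KO and KO_FL markers nearly coincide.

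Maternal factors did not share that side. The transcription factors that open the zygotic genome in zebrafish were at similar levels in their 2 strongest genes: nanog had 95.4 FPKM in KO, 81.6 in KO_FL, 91.4 in KO_dN and 34.7 in WT (-0.22), and pou5f3 had 39.8, 42.5, 37.7 and 31.6 (0.09). sox19b was lower in KO_FL, with 12.96, 7.37, 14.8 and 6.72 (-0.74). Of 42 oocyte and germ plasm genes, 26 passed, with 1 at least 2-fold higher, 0 lower and a median of -0.12, which ran from -0.33 to 0.11 under the alternatives. Taken relative to the median of all genes, it ran from -0.30 to -0.05. CCNB2, a mitotic cyclin stored in the egg, had 68.6, 35.0, 104 and 27.3 (-0.95), and CCNB1 had 63.9, 44.3, 43.3 and 58.0 (-0.52). ZAR1, an oocyte RNA-binding protein, had 44.5, 47.1, 41.2 and 1.23 (0.08), level in the 3 mutant groups and low in WT. aurka, the spindle kinase, was the gene past 2-fold, with 1.22, 3.58, 2.39 and 7.41 (1.04).

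Lists of the decay machinery and of RNA-binding proteins had few genes past 2-fold, as did all genes with such symbols (5.82%). Of 43 mRNA decay and deadenylation genes that passed (68 measured), 1 was at least 2-fold higher, 0 lower, and the median was 0.01. That gene was PNRC2, a decapping cofactor, with 86.5 FPKM in KO, 186 in KO_FL, 81.0 in KO_dN and 658 in WT (1.09). CNOT2, a scaffold of the CCR4-NOT deadenylase, had 11.6 and 6.06 in KO and KO_FL (-0.83), and YTHDF2, a reader of methylated maternal messenger RNA, had 10.6 and 15.3 (0.49). Among 21 maternal mRNA-binding proteins that passed (27 measured; median 0.17) only pabpc1a was past 2-fold. YBX1, a translational repressor of maternal messages, was level at 242 in KO and 243 in KO_FL, beside 176 in KO_dN and 60.0 in WT, while the translational regulator gene MSI2 had 41.3, 22.4, 20.1 and 7.09 (-0.85). Of 25 DEAD and DEAH-box helicase genes that passed, ddx3xb was the one past 2-fold; DDX5 had 57.8 and 82.3 (0.50), the germline helicase gene ddx43 had 10.4 and 5.31 (-0.86), and the list's median was 0.01. Splicing factors, the longest of these lists with 92 of 109 passing, had 0 genes past 2-fold in either direction and a median of 0.05.

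Genes of the respiratory chain are split between the mitochondrial and the nuclear genome. All 13 mitochondrially encoded protein genes passed, 12 were above 0 and 0 were past 2-fold, with a median of 0.37 and summed levels of 721 FPKM in KO, 940 in KO_FL, 816 in KO_dN and 2501 in WT. MT-CYB, of complex III, had 58.9 in KO and 93.3 in KO_FL (0.66), MT-CO2 had 45.0 and 71.0 (0.65), and MT-ND4 was level at 18.8 and 18.3 (-0.03). These messages are read by mitochondrial ribosomes, which cycloheximide does not block. Of 37 nuclear respiratory chain and ATP synthase genes that passed (86 measured), 3 were at least 2-fold higher and 1 lower, with a median of 0.10. Among all genes with a symbol other than a small RNA name the shares were 2.89% and 2.93%. atp5mc3b, of the ATP synthase ring, had 2.102, 8.22, 3.76 and 16.1 in KO, KO_FL, KO_dN and WT (1.57), and atp5meb had 1.11, 3.93, 1.83 and 6.23 (1.22); ndufb3, of complex I, was listed at 0 in KO and KO_dN and at 4.51 in KO_FL. ndufb3, counted among the 3 higher genes, passed only through KO_FL, so its side and its 2-fold call are no finding. NDUFA6 was lower, with 5.21, 1.73, 5.13 and 0.214 (-1.19). Which of the lists had the higher median depended on the processing: quantile normalization gave 0.06 for the mitochondrial and 0.11 for the nuclear genes. Mitochondrial ribosomal proteins, of which 17 of 65 passed, had 0 genes past 2-fold and a median of -0.13, a median that reached 0.07 under the alternatives.

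Stress programmes had at most single genes past 2-fold on a side, and no common side. Among all genes with a symbol other than a small RNA name, 2.89% were at least 2-fold higher and 2.93% lower. Heat shock proteins and chaperones (43 of 105 passed) had a median of 0.05, with HSPB1 the one higher and dnajc5ga the one lower, at 11.6 and 3.60 (-1.46); HSPA8, the constitutive HSP70, had 17.1 and 32.5 (0.89) and HSP90AB1 had 77.2 and 89.0 (0.20). Integrated and unfolded stress response genes (12 of 23 passed) had a median of 0.03, with PDIA6, a disulfide isomerase, at 7.14 and 16.2 (1.08), and PDIA4 on the other side at 6.91 and 2.99 (-0.99). Of 18 interferon-induced genes only isg15 passed, at 5.43 and 7.30 (0.37), and the other 17 were at most 0.328 in KO and 0.368 in KO_FL.

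Nuclear and cell division lists had few genes past 2-fold, which 5.82% of all genes with such symbols were. Histones (12 of 16 passed) had a median of 0.37 with 0 genes at least 2-fold higher, for example h2ax2 at 79.2 FPKM in KO and 125 in KO_FL (0.65), and 1 lower, the H3.3 gene h3f3b.1 at 2.96 and 0.767 (-1.17). Chromatin and HMG proteins (66 of 122 passed; median 0.04) had hmgn6, a nucleosome-binding protein, at 0.930 and 4.08 (1.40) and the acetyltransferase subunit gene KAT14 at 4.43 and 1.26 (-1.26). DNA replication genes (31 of 45; median -0.0026) had 0 past 2-fold, the licensing inhibitor GMNN being level at 132 and 138. Cyclins, mitotic kinases and checkpoint genes (51 of 93; median -0.05) had aurka higher and ANAPC4 lower, and CCNA2 level at 82.0 and 79.2. Proteasome subunits (31 of 52; median 0.01) had 0 higher and PSMD3, of the lid, lower at 6.45 and 2.27 (-1.19). Nuclear pore and transport genes (42 of 57; median -0.0049) had 0 higher and NUP37 lower, with the importin IPO5 at 8.51 and 15.5 (0.79).

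In the cytoskeleton lists members lay on both sides. So did all genes with a symbol other than a small RNA name, 2.89% at least 2-fold higher and 2.93% lower. Actin cytoskeleton genes (41 of 93 passed; median -0.03) had capza1a and profilin (pfn1, 1.54 and 4.25 FPKM, log2 ratio 1.05) at least 2-fold higher, and SPTAN1 and the myosin light chain gene MYL1 (5.87 and 1.61, -1.40) at least 2-fold lower. The abundant actins were closer, actb2 at 67.97 and 70.7 and actb1 at 25.7 and 39.4. Tubulins and microtubule motors (26 of 89 passed) had a median of -0.22, which under the alternatives ran from -0.45 to 0.03. Taken relative to the median of all genes, it ran from -0.32 to -0.03. STMN1, a tubulin-sequestering protein, had 17.8 in KO, 45.3 in KO_FL, 24.7 in KO_dN and 138 in WT (1.30), and its relative STMN4 had 4.35, 1.54, 5.04 and 0.650 (-1.08). TPX2, a spindle assembly factor, had 71.9 and 45.3 in KO and KO_FL (-0.66).

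Secretory and transport genes also had a few members past 2-fold on either side. All genes with such symbols had 2.89% at least 2-fold higher and 2.93% lower. ER translocon and secretory coat genes (51 of 64 passed; median 0.12) had SEC61G, of the translocon, at 5.11 and 15.4 FPKM (1.43), and the cargo receptor TMED10 at 21.9, 8.196, 24.2 and 4.58 in KO, KO_FL, KO_dN and WT (-1.31), with TMED8 the other lower gene. Solute carriers (61 of 384 passed; median 0.02) had SLC16A1, a lactate and pyruvate transporter, at 1.61 and 5.28 (1.27) and SLC38A4, an amino acid transporter, at 0.589 and 2.21 (1.02). SLC5A10, a sodium-coupled sugar transporter, was lower, with 26.9, 9.68, 27.2 and 1.36 (-1.39), and SLC7A4 had 2.63 and 0.812 (-1.003). Several lower genes named in these lists were low in WT on the scaled values and about as high in KO_dN as in KO. These were TMED10, SLC5A10, STMN4, NDUFA6 and EIF2B3. Other lower genes did not share this profile: KO and KO_dN had 28.1 and 4.13 for eif4e1c, 41.3 and 20.1 for MSI2, and 6.91 and 3.77 for PDIA4. The low place of WT depended on the scaling. As deposited, TMED10 had 15.97 in KO, 7.39 in KO_FL and 15.6 in WT. Deposited KO_FL and WT values were 1.39 and 2.21 for STMN4, 2.45 and 2.17 for EIF2B3, and 1.56 and 0.727 for NDUFA6.

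**Figure D5:**
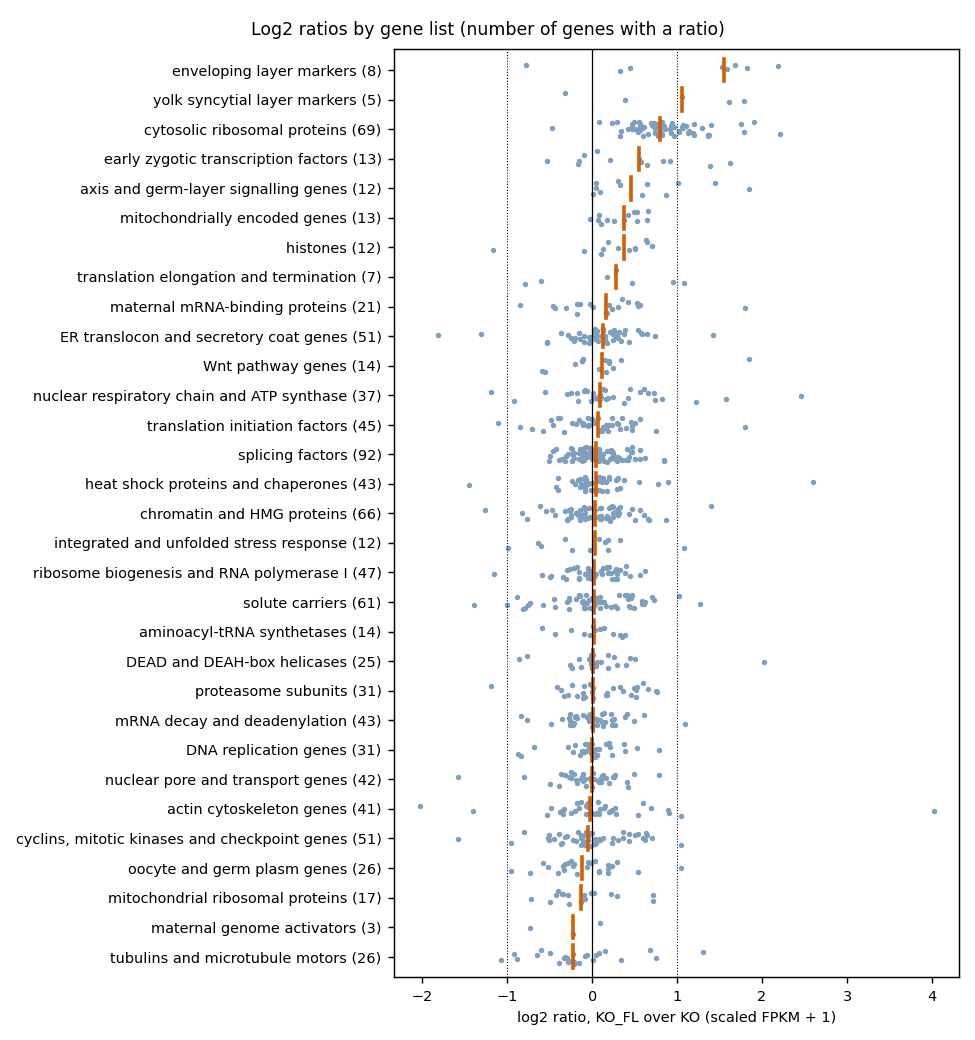
Log2 ratio of KO_FL over KO (x axis) by gene list, 1 point per gene that passed the filter, with the number of such genes in brackets, the list's median as an orange bar and dotted lines at 2-fold. The medians of enveloping layer markers (1.56), yolk syncytial layer markers (1.06) and cytosolic ribosomal proteins (0.79) lie farthest above 0 among genes that passed (0.18, 0.11 and 0.78 without the filter), and those of splicing factors (0.05) and DNA replication genes (-0.0026) lie near it.

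Levels and ratios were not independent. Among genes with a symbol other than a small RNA name, those with a mean of 1 to 2 FPKM had a median log2 ratio of -0.04, with 20 of 1699 at least 2-fold higher and 27 lower. At 5 to 20 FPKM the median was 0.00, with 40 and 39 of 927. At 100 FPKM and more it was 0.42, with 3 and 2 of 23. Strong genes thus lay on the higher side by more than weak ones on this scale. The 69 ribosomal protein genes had a median level of 2.22 in KO and 4.67 in KO_FL; at a mean of 2 to 5 FPKM, the median log2 ratio of genes with such symbols was -0.03.

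Fragments of small structural RNAs took up much of the FPKM, and their share differed between the groups. Small RNA names held 54.4% of the deposited FPKM in KO, 35.8% in KO_FL, 38.6% in KO_dN and 31.9% in WT. The 5_8S_rRNA entry, for an RNA of the ribosome itself, had 226805 scaled FPKM in KO, 27679 in KO_FL, 115849 in KO_dN and 24512 in WT (log2 ratio -3.03). This entry set the direction of the class's sum: without it, small RNA names summed to 44556 scaled FPKM in KO, 129454 in KO_FL, 49022 in KO_dN and 167663 in WT. Counted by gene, the class lay on the higher side with the entry included. Of 119 that passed, 50 were at least 2-fold higher and 14 lower, with a median log2 ratio of 0.59. Of the 119, 20 were listed at 0 in KO only and 8 in KO_FL only. Those passed only through the other group, so their side is no finding. Ribosomal RNA names, the 5_8S_rRNA entry among them, did not share the class's side. Of 17 that passed (502 measured), 5 were at least 2-fold higher and 8 lower, with a median of -0.62. Of these 17, 4 were listed at 0 in KO and 4 in KO_FL, and so passed only through the other group. Small nucleolar RNAs, which guide chemical marks on ribosomal RNA, lay on the higher side. Of 44 that passed (53 measured), 16 were at least 2-fold higher in KO_FL and 2 lower, with a median of 0.57. snord29 had 18711 in KO, 57811 in KO_FL, 7702 in KO_dN and 70365 in WT (1.63), and SNORD30 had 3560, 20440, 2980 and 11922 (2.52). snord31.3 was listed at 0 in KO and at 270 in KO_FL, 129 in KO_dN and 154 in WT, and SNORD36C had 38.7 in KO and was listed at 0 in KO_FL. Spliceosomal RNAs (19 of 55 passed) had 11 at least 2-fold higher and 0 lower, and microRNA genes (18 of 224) had 11 and 3. Of these microRNA genes 10 were listed at 0 in KO and 3 in KO_FL, so they passed only through the other group. Of the spliceosomal RNAs that passed, 4 were listed at 0 in KO and none in KO_FL. Of the small nucleolar RNAs 2 were listed at 0 in KO and 1 in KO_FL. These too passed only through the other group. Among all genes 5.97% were higher and 4.26% lower. For such short genes FPKM turns few fragments into high values, and whether these fragments were shielded by ribosomes was not tested; nor was their part in the ratios of protein genes.

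Genes without a symbol had a median between those of the other classes. Of 11770 measured, 1346 passed, 176 were at least 2-fold higher and 108 lower, and the median was 0.05. Among all genes 5.97% were higher and 4.26% lower. Of the 1346, 66 were listed at 0 in KO alone and 22 in KO_FL alone. These passed only through the group where they were above 0, which fixed their side and their 2-fold call. The summed level of genes with a symbol other than a small RNA name was 31567 scaled FPKM in KO, 32450 in KO_FL, 30025 in KO_dN and 43034 in WT, 6.33%, 7.39%, 7.03% and 7.13% of the deposited sums.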

How the data were processed

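Zebrafish embryos were profiled by ribosome footprinting. Per the labels' protocols, lysates of embryos treated with cycloheximide were digested with RNase I, cleared of ribosomal RNA and size-selected; the molecule field of the labels says polyA RNA, at odds with this. Cufflinks 2.2.1, TopHat2 2.1.1, Bowtie, Trimmomatic 0.36, cutadapt 1.13 and build Zv9 are listed in the submitters' processing notes, without settings. The deposited values are FPKM, which per the series design text the authors combined from both replicates of a group.

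Deposited FPKM summed to 364061 in KO, 395754 in KO_FL, 190693 in KO_dN and 2050290 in WT. The WT file had another layout; 101 identifiers on repeated lines there and 3 absent from it were left out of 33737. Symbols matched 21863 identifiers. Ratios used a pseudocount of 1, and genes were called at 2-fold. Scripts (Python 3.11.15, numpy 2.4.6, pandas 2.3.3) were tested on simulated data. Groups came from titles. Named genes were ddx3xb, ddx3xa, the 15 highest and 15 lowest ratios at a mean of at least 5 FPKM and, per list, the 3 highest, 3 lowest and 3 strongest members; a few others were named after their values were seen. The 35 gene lists and the members were chosen with earlier results of these data known, and 25 identifiers caught by symbol patterns were removed from lists by identity. Lists overlap. Of these lists, 1 and a few single genes are not reported here or shown in plots, though the genes stay in counts and sums. The alternatives are given in the closing section.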

Additional observations from a re-analysis of the deposited data

How the results depend on the processing

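With 1 value per gene and group, leaving out a replicate was not possible. No paired analysis was possible because each group has 1 deposited value per gene. Of 10 alternatives, 5 moved the count of genes at least 2-fold higher in KO_FL or lower by over 1.5 times from 356 and 254 of 5964. A pseudocount of 0.1 gave 511 and 452, a pseudocount of 5 gave 185 and 94, a mean of at least 5 FPKM gave 214 and 121 of 1838, deposited values gave 466 and 145 of 5281, and TPM gave 668 and 338 of 8421. Equal sums without the 50 highest genes gave 244 and 340 of 5363, so the larger side depended on the scale. Of 2701 alternative log2 ratios of 283 named genes, 118 crossed 2-fold and 90 changed sign, ddx3xa as deposited among them (0.04); none of those 90 was past 2-fold before, and the largest was 0.29 in size. Of 329 alternative medians of 33 lists, 9 crossed 2-fold and 51, in 25 lists, changed sign, none of them from a median above 0.28 in size. The median of all genes itself ran from -0.21 to 0.22. Ribosomal protein genes kept a median above that of all genes by 0.41 to 1.04. Other lists kept their side too, among them early zygotic transcription factors (0.21 to 0.70), histones (0.16 to 0.41) and mitochondrially encoded genes (0.08 to 0.44). Maternal genome activators stayed below the median of all genes (-0.52 to -0.15). The causes were not tested. Depth is unknown, so the counting error of low values cannot be given.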
